A study of Mus musculus with 8 samples.

Results

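Complement genes were examined in LRP1-depleted and control mouse vascular cell preparations. The 9 genes were taken by symbol: C1qa, C1qb, C1qc, C1ra, C3, C3ar1, C4b, Cfb and Serping1. They are 9 of the 22520 genes in the mRNA-seq table, and all 9 were among the 11389 genes with enough signal to be tested. The cells were PECAM-1 bead-selected microvascular cells from C57BL/6 mice at postnatal day 14. By the labels each library is a mix of heart, liver and lung cells, whereas the study describes liver cells kept apart from those of heart and lung, so the organs behind each library's level are uncertain. There were 4 libraries of each group. The LRP1 KO mice were LRP1 f/f with 1 copy of Cdh5-CreER, in which the Cdh5 promoter drives an inducible Cre recombinase in endothelial cells, and the WT mice were littermates that carried the same LRP1 f/f allele without Cdh5-CreER. How Cre was induced in these mice is not given in the sources used here, nor is whether each library came from its own animal, so the p-values measure the spread between libraries, which may be technical.

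Complement is a cascade of plasma proteins that marks microbes and dying cells for removal. In the classical pathway C1q binds a surface and activates the proteases C1r and C1s, which cleave C4 and C2 and lead to cleavage of C3, the component on which all pathways converge. Factor B, encoded by Cfb, forms the C3-cleaving enzyme of the alternative pathway, C1 inhibitor, encoded by Serping1, blocks C1r and C1s, and C3ar1 is the receptor for the C3 fragment C3a. Tissue macrophages are the main source of C1q, whereas liver cells and stromal cells make much of the remainder. C1qa, C1qb, C1qc and the myeloid receptor C3ar1 are therefore described here as the macrophage genes, and C1ra, C3, C4b, Cfb and Serping1 as the stromal genes.

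The C1q genes lie side by side on the minus strand of chromosome 4 (C1qb at chr4:136880129-136886187, C1qc at chr4:136889804-136893065 and C1qa at chr4:136895917-136898803, GRCm38, GENCODE annotation), within 18.7 kb. C1ra lies on chromosome 6 in a cluster of 5 C1r and C1s genes (C1ra at chr6:124512405-124523443, plus strand). C4b (chr17:34728380-34743882) and Cfb (chr17:34856374-34862518) lie in one region of chromosome 17, with C3 (chr17:57203970-57228136) apart from them, all on the minus strand. Serping1 lies at chr2:84765387-84775444 and C3ar1 at chr6:122847138-122856161, both on the minus strand. The 250 bases before the RefSeq transcript start (GRCm38.p6) were matched for 5 of the genes, and those of C1qb, C1qc, C3 and C1ra are shown because these C1q genes rose and these stromal genes fell in LRP1 KO. They are C1qb (chr4:136886201-136886450, minus strand), C1qc (chr4:136892915-136893164, minus strand), C3 (chr17:57228137-57228386, minus strand) and C1ra (chr6:124512371-124512620, plus strand). Capitals mark the one match to the motifs searched.
C1qb: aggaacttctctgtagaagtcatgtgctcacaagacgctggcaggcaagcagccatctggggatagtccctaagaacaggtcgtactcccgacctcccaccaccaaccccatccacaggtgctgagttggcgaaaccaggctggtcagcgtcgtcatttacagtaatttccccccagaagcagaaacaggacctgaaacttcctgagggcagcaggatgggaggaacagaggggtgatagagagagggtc
C1qc: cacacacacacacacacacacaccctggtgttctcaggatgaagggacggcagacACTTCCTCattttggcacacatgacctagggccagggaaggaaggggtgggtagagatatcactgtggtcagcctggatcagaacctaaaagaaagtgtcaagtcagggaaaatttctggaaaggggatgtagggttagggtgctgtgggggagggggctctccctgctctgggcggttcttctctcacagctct
C3: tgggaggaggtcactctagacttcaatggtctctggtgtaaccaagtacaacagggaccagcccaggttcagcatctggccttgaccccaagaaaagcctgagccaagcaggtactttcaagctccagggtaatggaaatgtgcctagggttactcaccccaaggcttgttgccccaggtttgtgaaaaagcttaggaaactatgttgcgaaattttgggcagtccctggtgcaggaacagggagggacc
C1ra: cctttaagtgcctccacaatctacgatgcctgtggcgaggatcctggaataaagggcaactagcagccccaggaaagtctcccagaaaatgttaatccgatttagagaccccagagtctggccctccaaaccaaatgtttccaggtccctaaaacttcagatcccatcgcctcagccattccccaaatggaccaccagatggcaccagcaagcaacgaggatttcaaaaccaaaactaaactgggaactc
These windows and that of C3ar1 were searched on both strands for the interferon-stimulated response element (GAAA, any 2 bases, GAAA), the gamma-activated site (TTCNNNGAA) and the core bound by the myeloid factor PU.1 (GAGGAAGT). Of all 32851 RefSeq windows of this length, 2.98% held the first, 7.02% the second and 2.44% the third. The capitals in the C1qc window are the PU.1 core read on the opposite strand, starting 195 bases before the RefSeq transcript start. The GENCODE starts of C1qc and C1ra lie inside their windows. Part of each of these windows is therefore within the GENCODE gene, and the distance holds for the RefSeq start only. The other windows, those of C1qb, C3, C1ra and C3ar1, held none of these letters. No window was matched for C1qa, C4b, Cfb or Serping1.

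Expression is given as deposited values read as FPKM, fragments scaled to transcript length and library size, so levels of different genes can be compared per length. Lrp1 itself averaged 120.1 ± 16.0 FPKM in WT (SD, n = 4). In LRP1 KO it averaged 4.79 ± 2.20 FPKM (SD, n = 4), a level of 3.99% of WT, with no overlap between the groups. The WT libraries correlated with each other at 0.987 to 0.994 over log-scaled genes and the LRP1 KO libraries at 0.980 to 0.994. The endothelial label was set against marker genes. Pecam1 was at 6.80 to 8.76 FPKM in WT, whereas the mesothelial marker Msln was at 1094 to 1272 FPKM and the fibroblast gene Col1a2 at 726 to 973 FPKM. Summed over 16 endothelial markers the level was 172 to 187 FPKM in WT and 394 to 621 FPKM in LRP1 KO libraries 1 to 3, but 179 FPKM in LRP1 KO library 4. Lrp1 was at 7.72 FPKM in that library. Which cells lost Lrp1 was not tested, so the differences below are not shown to be effects of its loss in endothelial cells alone. Because LRP1 KO library 4 stood apart from the other LRP1 KO libraries in its endothelial sum, results that rest on it are also given without it. In the fits without library 4 the endothelial sums of WT and LRP1 KO do not overlap. Endothelial content and LRP1 depletion therefore cannot be told apart in those fits.

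Of the 9 complement genes, 3 rose in LRP1 KO (C1qb, C1qc and C3ar1), 2 fell (C1ra and C3) and 4 did not pass the test (C1qa, C4b, Cfb and Serping1), at an adjusted p under 0.05 by limma over all 11389 genes. Over all tested genes 13.6% passed, 6.27% higher and 7.31% lower. Among the macrophage genes 3 of 4 were higher and the median difference was 1.93 on the log2(FPKM + 1) scale. Among the stromal genes 2 of 5 were lower and the median was -0.96, against -0.01 over all tested genes. The groups did not overlap for 4 members (C1qb, C1qc, C3ar1 and C3), and 19.6% of all tested genes had groups that did not overlap, 8.84% higher and 10.7% lower in LRP1 KO. The same 4 genes also passed with at least a 2-fold change, as did 1.62% of tested genes, 1.12% higher and 0.5% lower. In these bulk libraries, fewer cells of a type and less RNA per cell cannot be told apart.

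**Figure D1:**
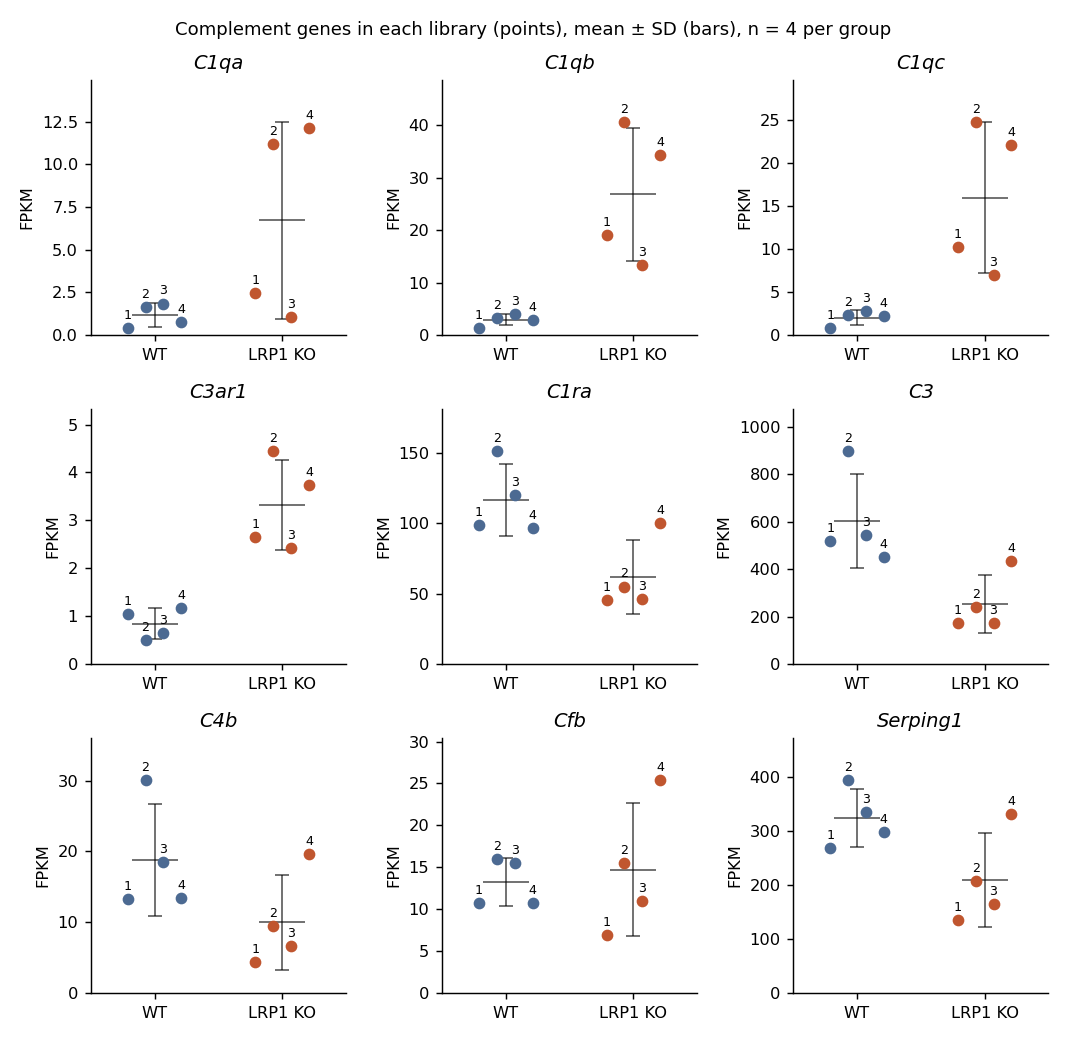
FPKM of the 9 complement genes in the 4 WT and 4 LRP1 KO libraries, one panel per gene with its own axis from 0. Points are libraries and bars are mean ± SD (n = 4). C1qb, C1qc and C3ar1 are higher and C3 is lower in every LRP1 KO library than in any WT library, while the groups overlap for the other 5 genes.

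C1qb, which encodes the B chain of C1q, was at 1.44, 3.33, 4.04 and 2.94 FPKM in WT and 19.1, 40.5, 13.4 and 34.3 FPKM in LRP1 KO, in the order of libraries 1 to 4 in each group. Every LRP1 KO library lay above every WT library. The means were 2.94 ± 1.10 and 26.8 ± 12.7 FPKM, a ratio of 9.13, and the difference on the log2(FPKM + 1) scale was 2.75 (SE 0.34, 95% interval 1.98 to 3.51, adjusted p = 0.00237). C1qc, the C chain, was at 0.791, 2.33, 2.76 and 2.26 FPKM in WT and 10.2, 24.7, 6.93 and 22.1 FPKM in LRP1 KO. Its libraries took the same order as those of C1qb in both groups, with WT library 1 lowest among WT and LRP1 KO libraries 2 and 4 highest. C1qc rose 7.86-fold by group means, with a log2 difference of 2.37 (SE 0.38, adjusted p = 0.00767).

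C1qa, the A chain, was at 0.399, 1.66, 1.85 and 0.777 FPKM in WT and 2.47, 11.2, 1.08 and 12.1 FPKM in LRP1 KO. LRP1 KO library 3 lay within the WT range, so the groups overlapped although the other LRP1 KO libraries were above it. The log2 difference was 1.48 (SE 0.57, 95% interval 0.20 to 2.77) and did not pass after adjustment (adjusted p = 0.105). It passed only when LRP1 KO library 3 was left out (1.98, adjusted p = 0.0486). The C1q molecule contains equal numbers of its A, B and C chains, but the transcripts were unequal, with C1qa at 0.264 to 0.499 of C1qb in WT and 0.0803 to 0.353 in LRP1 KO. C1qb per C1qc was steadier, at 1.30 to 1.82 in WT and 1.55 to 1.93 in LRP1 KO, and these ranges overlapped.

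C3ar1, the C3a receptor of myeloid cells, was at 1.04, 0.504, 0.641 and 1.18 FPKM in WT and 2.66, 4.44, 2.43 and 3.75 FPKM in LRP1 KO. No LRP1 KO library was as low as any WT library, at levels that remained below those of C1qb in the same libraries. The ratio of means was 3.94 and the log2 difference 1.22 (SE 0.17, adjusted p = 0.00448). Low values compress differences on the log2(FPKM + 1) scale, so this difference understates the ratio of means. The calls on C1qb, C1qc and C3ar1 held when any one library was left out, with adjusted p-values of at most 0.0258 over the settings run.

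C3, the central component, was the most abundant of the 9 in both groups. It was at 519, 897, 542 and 452 FPKM in WT and 171, 239, 173 and 432 FPKM in LRP1 KO, and ranked 138 of 22520 genes by mean level in WT and 302 in LRP1 KO. LRP1 KO library 4 came close to the lowest WT library, and the others were far below it. C3 fell to 42.1% of its WT mean, with a log2 difference of -1.30 (SE 0.31, 95% interval -1.99 to -0.61, adjusted p = 0.0278). Without LRP1 KO library 4 the difference was -1.59 (adjusted p = 0.00184). The call was lost when any one of WT libraries 1 to 3 or LRP1 KO libraries 1 to 3 was left out, with differences of -1.09 to -1.36 and adjusted p-values of at most 0.0770, and with no filter on low values (adjusted p = 0.0608).

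C1ra, a protease of the C1 complex, was at 98.9, 151, 120 and 96.3 FPKM in WT and 45.1, 55.0, 46.1 and 100.3 FPKM in LRP1 KO. LRP1 KO library 4 was within the WT range and the other LRP1 KO libraries were below it. C1ra fell to 52.9% of the WT mean (log2 difference -0.96, SE 0.25, adjusted p = 0.0343). The call held without LRP1 KO library 4 (-1.22, adjusted p = 0.00114) and was lost when any other library was left out, with adjusted p-values of at most 0.0983. It was also lost with the replicate block (0.0606) and with no filter on low values (0.0735). Of the 50-base stretches of the longest coding C1ra transcript, 48.0% also occur in its near-identical neighbour C1rb, which was not analysed here, so reads of these genes may have been split or merged.

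Serping1, which encodes C1 inhibitor, was at 268, 394, 334 and 298 FPKM in WT and 135, 207, 164 and 332 FPKM in LRP1 KO. LRP1 KO library 4 lay within the WT range, while the other LRP1 KO libraries were below all WT libraries. The mean in LRP1 KO was 64.7% of WT and the log2 difference was -0.70 (SE 0.25, adjusted p = 0.0865). C4b, which encodes the component cleaved by C1s, was at 13.3, 30.1, 18.5 and 13.4 FPKM in WT and 4.36, 9.40, 6.58 and 19.6 FPKM in LRP1 KO. It showed the same arrangement of libraries, with library 4 inside the WT range. Its log2 difference was -0.96 (SE 0.40, adjusted p = 0.126). Without LRP1 KO library 4, both genes passed as lower, Serping1 at -0.95 (adjusted p = 0.00435) and C4b at -1.33 (adjusted p = 0.0137), among 26.5% of all tested genes that passed in that fit. C4b shares 35.2% of its 50-base stretches with C4a, which was not analysed here.

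Cfb, the factor B gene, was at 10.8, 16.0, 15.5 and 10.7 FPKM in WT and 6.95, 15.5, 11.0 and 25.4 FPKM in LRP1 KO. LRP1 KO library 4 was the highest of all 8 libraries and LRP1 KO library 1 the lowest. The log2 difference was 0.03 (SE 0.32, 95% interval -0.69 to 0.75, adjusted p = 0.964), an interval that includes falls and rises of more than 1.5-fold. Left-out libraries moved the estimate between -0.27 and 0.31, and it turned negative without WT library 1, WT library 4, LRP1 KO library 2 or LRP1 KO library 4. Relative to C3, Cfb was at 1.78 to 2.86% in WT and 4.06 to 6.49% in LRP1 KO, and these ranges did not overlap. Of its 50-base stretches 81.4% are shared with the readthrough gene Gm20547, which averaged 0.652 FPKM in WT and was at 0.558 FPKM on average after LRP1 depletion.

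**Figure D2:**
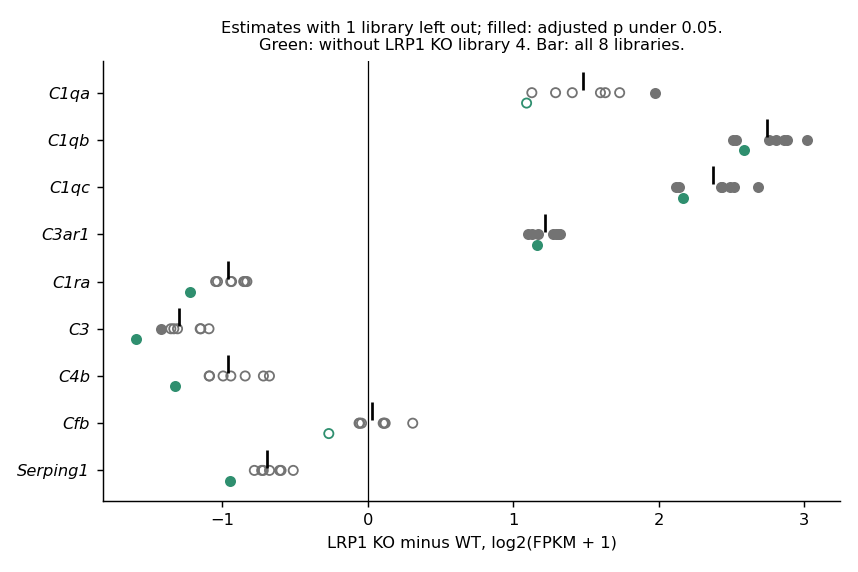
Log2(FPKM + 1) difference of LRP1 KO minus WT for the 9 complement genes with 1 library left out at a time. The bar is the value over all 8 libraries, circles are the 8 values with 1 library left out, filled where the adjusted p was under 0.05 and green without LRP1 KO library 4. C1qb, C1qc and C3ar1 are filled throughout, and the stromal genes C1ra, C3, C4b and Serping1 are all filled without LRP1 KO library 4.

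The macrophage and stromal genes were then set against each other in the same libraries. Summed over C1qa, C1qb and C1qc, C1q expression was 2.63, 7.32, 8.65 and 5.97 FPKM in WT and 31.7, 76.4, 21.4 and 68.5 FPKM in LRP1 KO. Summed over C1ra, C3, C4b, Cfb and Serping1, stromal complement was 911, 1488, 1030 and 871 FPKM in WT and 362, 526, 400.2 and 909 FPKM in LRP1 KO. C1q was higher in every LRP1 KO library, and the stromal sum was lower in LRP1 KO libraries 1 to 3 and within the WT range in library 4. The C1q sum was 0.289 to 0.840% of the stromal sum in WT and 5.35 to 14.5% in LRP1 KO. Stromal complement remained the larger in every library. C3 made up 51.9 to 60.3% of the stromal sum in WT and 43.2 to 47.5% in LRP1 KO, and C3 per C1ra was 4.53 to 5.93 in WT and 3.75 to 4.35 in LRP1 KO. Neither range overlapped between the groups, so C3 was lower relative to the stromal sum and to C1ra in all 4 LRP1 KO libraries. These sums and ratios were not tested, because the genes were chosen with results known.

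**Figure D3:**
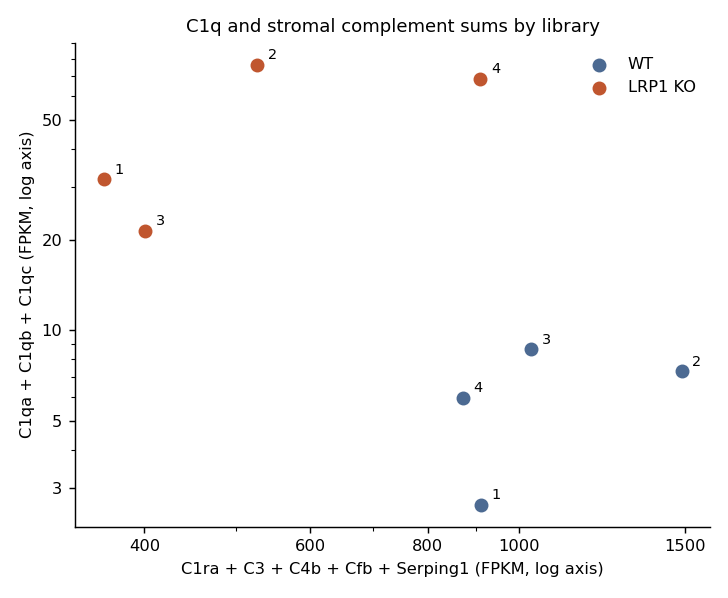
Sum of C1qa, C1qb and C1qc (vertical, FPKM, log axis) against the sum of C1ra, C3, C4b, Cfb and Serping1 (horizontal, FPKM, log axis), one point per library, numbered by replicate. All LRP1 KO points lie above the WT points at 21.4 to 76.4 FPKM of C1q, and LRP1 KO library 4 lies within the WT span of the stromal sum.

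Macrophage markers were higher with the C1q genes. The 18 macrophage markers summed to 94.0 to 118 FPKM in WT. In LRP1 KO libraries 1 to 4 they summed to 424, 601, 264 and 542 FPKM. Of the 12 that were tested 11 rose, against 6.27% of all tested genes. Adgre1 and Mrc1 passed the filter only through LRP1 KO, with no WT library at 1 FPKM, so that count is partly set by the filter. The order of the marker sum over the LRP1 KO libraries, with library 2 highest and library 3 lowest, was that of C1qb and C1qc. Lyz2, the most abundant, was at 24.0 to 54.3 FPKM in WT and 129 to 334 FPKM in LRP1 KO, and the defining marker Adgre1 at 0.126 to 0.475 and 1.91 to 4.26 FPKM. The Kupffer cell genes Clec4f and Timd4 and the receptor gene Cx3cr1 were at or near 0, with no library above 0.0156 FPKM. Marco, on the same list and also below the filter, was at 0.0821 to 0.666 FPKM in WT. In LRP1 KO libraries 1 to 4 Marco was at 7.84, 5.53, 0.636 and 11.8 FPKM, and the groups overlapped. Cd14, the tested marker that did not rise, was at 29.9 to 47.9 FPKM in WT and 19.0 to 36.9 FPKM in LRP1 KO. C1q amounted to 2.80 to 7.30% of the macrophage marker sum in WT and 7.49 to 12.7% in LRP1 KO, but to 5.70 to 9.77% and 7.99 to 13.6% without Cd14, an alternative chosen after seeing the data. C1qb per Ctss, a lysosomal protease gene of macrophages, was 0.360 to 0.633 in WT and 0.437 to 0.637 in LRP1 KO. The groups did not overlap for the share of the full sum, and they overlapped for the share without Cd14 and for C1qb per Ctss. Of 9 general leukocyte markers 5 were tested, of which 3 rose (Cd52, Cd53 and Lcp1) and 2 did not pass. Cd52 was below 1 FPKM in every WT library. Of 2 tested neutrophil markers S100a8 rose (0.94, adjusted p = 0.0475 by limma) and Mmp8 did not pass. The parts of macrophage and other leukocyte number in the C1q rise were not tested.

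For the stromal genes, 13 fibroblast markers summed to 2534 to 3736 FPKM in WT and 2182 to 3402 FPKM in LRP1 KO, with Pdgfra and Dpt lower, Postn higher and the other 9 of 12 tested markers not passing. Among the LRP1 KO libraries the fibroblast sum was highest in library 4, the library in which C1ra, C4b and Serping1 were within the WT range. Stromal complement was 27.8 to 39.8% of the fibroblast sum in WT and 15.1 to 26.7% in LRP1 KO, without overlap. The 6 mesothelial markers summed to 2269 to 2632 FPKM in WT and 1977 to 2219 FPKM in LRP1 KO, with Msln and Upk3b lower among the 6 tested, and stromal complement relative to them overlapped, at 33.4 to 62.3% and 16.6 to 41.0%. Hepatocytes are the main source of plasma C3 and C4, and of 10 hepatocyte markers only Ahsg was tested. It was at 10.1 to 11.1 FPKM in WT and 11.5 to 27.2 FPKM in LRP1 KO and passed as higher (0.91, adjusted p = 0.0326), whereas Alb did not exceed 0.108 FPKM in any library and Apoc3 was listed at 0 throughout. The 9 mural cell markers summed to 667 to 833 FPKM in WT and 1032 to 1617 FPKM in LRP1 KO, without overlap, and 3 of 7 tested (Acta2, Tagln and Des) were higher. Lymphocyte markers summed to at most 0.684 FPKM. Interferon-response genes, which as a class can include complement genes, were higher in LRP1 KO for 16 of 18 tested. Their sums were 383 to 434 FPKM in WT and 685 to 977 FPKM in LRP1 KO. Over all tested genes 6.27% were higher and 7.31% lower. The parts of fibroblast, mesothelial, mural, hepatocyte and endothelial content and of the interferon response in the stromal differences were not tested.

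**Figure D4:**
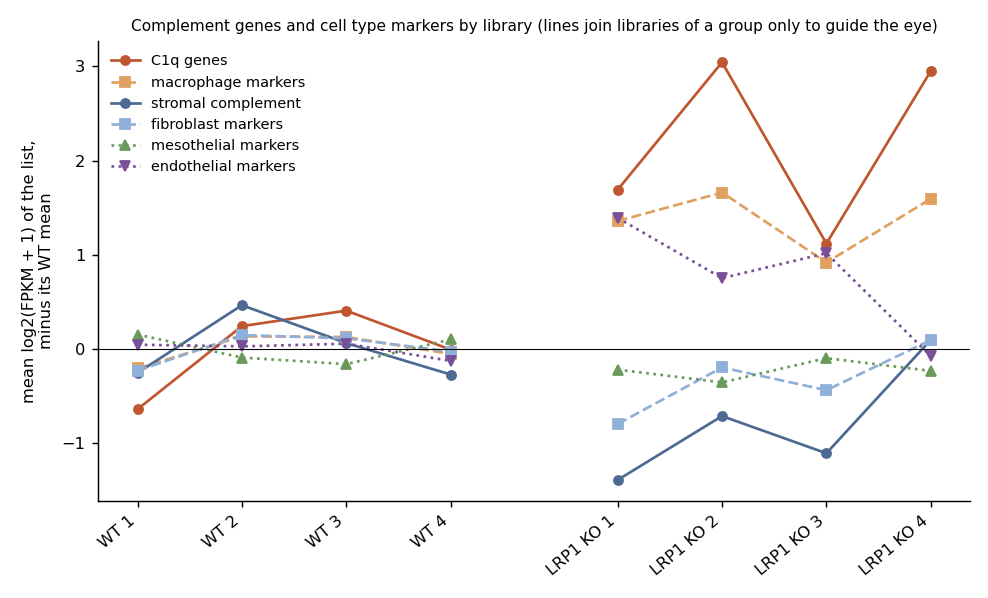
Mean log2(FPKM + 1) of the C1q genes, the stromal complement genes and 4 cell type marker lists in each library, each minus its own WT mean. Lines join libraries of a group only to guide the eye. C1q and macrophage markers are higher in all LRP1 KO libraries, and in LRP1 KO library 4 the stromal complement, fibroblast and endothelial lists sit at their WT level.

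Genes with the most similar profiles over the 8 libraries are given as description. Likeness was the root-mean-square difference of the log2(FPKM + 1) values, each gene centred on its mean, over 8 libraries, among tested genes outside the complement list. It includes the group difference, and the sets were chosen with results known and mostly moved in opposite directions. Different neighbours could therefore hardly fail to appear. By the same measure the spread around its own mean was 1.47 for C1qb, 1.32 for C1qc, 1.14 for C1qa and 0.66 for C3ar1. It was 0.80 for C3, 0.77 for C4b, 0.61 for C1ra, 0.51 for Serping1 and 0.48 for Cfb. The closest to C1qb were Lyz2 (0.177), Ctss (0.197) and Mpeg1 (0.231), and the same 3 genes were the closest to C1qc. C1qa was nearest to Chi3l3 (0.495), Mrc1 (0.507) and Cd5l (0.544), all macrophage genes, at larger distances. For C3ar1 they were the Fc receptor gene Fcgr4 (0.180), Nckap1l (0.199) and Plac8 (0.205). The stromal genes had other neighbours. C1ra was nearest to Nkd1 (0.0864), Pamr1 (0.0882) and Ltbp4 (0.0957), C3 to Cyp7b1 (0.131), Gpc3 (0.144) and Fxyd1 (0.164), and C4b to Gdpd2 (0.143), Fbln1 (0.183) and Podn (0.214). Serping1 was nearest to Fzd1 (0.101), Ggt5 (0.116) and Osr1 (0.119), and Cfb to Apoc1 (0.169), Srpx (0.202) and Stc2 (0.222).

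The rest of the pathway was counted from a list of 60 complement genes, 58 of them in the table. Outside the 9 members, 21 genes were tested, of which 4 rose (Cfp, Itgb2, Cd93 and Thbd), 5 fell (C1rl, C1s1, C1s2, C8g and Cfi) and 12 did not pass, with a median log2 difference of 0.04. A further 20 had low values and were left out of the limma fit at the main filter, and 8 were listed at 0 in all libraries. In the C1 complex and its related proteases all 7 genes in the table were tested. The C1q chains and the proteases moved in opposite directions there, with 2 higher (C1qb and C1qc), 4 lower (C1ra, C1rl, C1s1 and C1s2) and C1qa not passing. C1s1, the C1s protease that cleaves C4, was at 302 ± 58.3 FPKM in WT, against 172 ± 45.8 FPKM with LRP1 depleted (log2 difference -0.82, SE 0.18, adjusted p = 0.0218). Its relatives C1s2 (-0.79, adjusted p = 0.0240) and C1rl (-0.66, adjusted p = 0.0398) were lower by similar amounts. The call was lost for C1s1 without WT library 2 or any one of LRP1 KO libraries 1 to 3 (adjusted p at most 0.0645), for C1s2 also without WT library 3 (at most 0.0722), and for C1rl also without WT library 1 or 3 (at most 0.112). With no filter on low values all 3 calls were also lost (adjusted p = 0.0502, 0.0540 and 0.0795 for C1s1, C1s2 and C1rl), as were those of C1s2 (0.0516) and C1rl (0.0737) with the replicate block. C2, the next protease of the cascade, had means of 64.4 (WT) and 45.5 FPKM (LRP1 KO) and did not pass (-0.49, adjusted p = 0.0578), except without LRP1 KO library 4 (adjusted p = 0.0112).

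Among the soluble regulators, 1 of 6 tested genes fell. Cfi, encoding the protease factor I that inactivates cleaved C3 and C4, went from 14.6 ± 3.71 to 4.89 ± 1.03 FPKM (log2 difference -1.39, SE 0.17, adjusted p = 0.00244). It was at 16.0, 19.2, 12.2 and 11.0 FPKM in WT and 4.59, 4.41, 4.14 and 6.41 FPKM in LRP1 KO, and here LRP1 KO library 4 also lay below every WT library. The call held in each of the settings run. Clu, which encodes clusterin, an inhibitor of terminal complement, was at 352 and 225 FPKM and did not pass (-0.62, adjusted p = 0.0535), except without LRP1 KO library 4 (adjusted p = 0.0266) or WT library 3 (adjusted p = 0.0492). Among membrane regulators only Thbd, encoding thrombomodulin, passed of 5 tested, from 49.7 to 70.1 FPKM (0.49, adjusted p = 0.00482), while the decay-accelerating factor gene Cd55 (0.13, adjusted p = 0.215) and Cd59a (0.44, adjusted p = 0.143) did not. Cd59a passed without LRP1 KO library 4 (adjusted p = 0.00191), as did the soluble regulator gene C4bp, which differed by 0.59 over all 8 libraries (adjusted p = 0.0939) and by 0.81 without library 4 (adjusted p = 0.00436).

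Of 10 receptor genes, 4 were tested, and C3ar1, Itgb2 and Cd93 rose. Itgb2, the beta chain of complement receptors CR3 and CR4, went from 1.41 to 5.22 FPKM (1.34, adjusted p = 0.00328), and Cd93, a C1q-receptor-like protein of endothelial and myeloid cells, from 1.53 to 5.75 FPKM (1.37, adjusted p = 0.00448). The other tested receptor gene, C1qbp, did not pass (0.07, adjusted p = 0.302). The alpha chains that pair with Itgb2 were below the filter. Itgam was at 0.102 to 0.935 FPKM in WT and 0.959 to 2.37 FPKM in LRP1 KO, and Itgax at 0.0537 to 0.166 and 0.458 to 1.02 FPKM. C5ar1, the C5a receptor, was at 0.0155 to 0.300 FPKM in WT and 0.668 to 1.80 FPKM in LRP1 KO. Each of Itgam, Itgax and C5ar1 was higher in every LRP1 KO library, at an exact two-sided permutation p of 0.0286, the smallest that 4 against 4 libraries allow, so that adjustment over the 20 low genes (0.143) could hardly be passed. In the limma fit with no filter on low values they were called higher, C5ar1 by 0.94 (adjusted p = 0.0238), Itgax by 0.64 (adjusted p = 0.0146) and Itgam with an adjusted p of 0.0468. The groups overlapped for the other low receptor genes, Cr2, Vsig4 and C5ar2.

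The alternative and terminal pathways held few tested genes. Cfp, encoding properdin, the stabilizer of the alternative convertase, rose from 1.15 to 2.90 FPKM (0.85, adjusted p = 0.00388), unlike Cfb, the other gene tested there. In the terminal pathway only C8g was tested, and it fell from 1.25 to 0.709 FPKM (-0.40, adjusted p = 0.0495), a call that was lost when any one library other than LRP1 KO 4 was left out (adjusted p at most 0.132), at pseudocounts of 0.1 and 0.5, under rescaling, with no filter and with the replicate block (0.0506 to 0.0886). C7, below the filter, was at 0.142 to 0.364 FPKM in WT and 0.0178 to 0.112 FPKM in LRP1 KO, without overlap, and was called lower in the fit with no filter (-0.30, adjusted p = 0.0359). Neither tested lectin pathway gene passed over all 8 libraries. Masp1, a protease of that pathway, was at 2.96 to 5.41 FPKM in WT and 5.49 to 6.67 FPKM in LRP1 KO (0.47, adjusted p = 0.0657) and passed without WT library 3 (0.58, adjusted p = 0.0440).

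**Figure D5:**
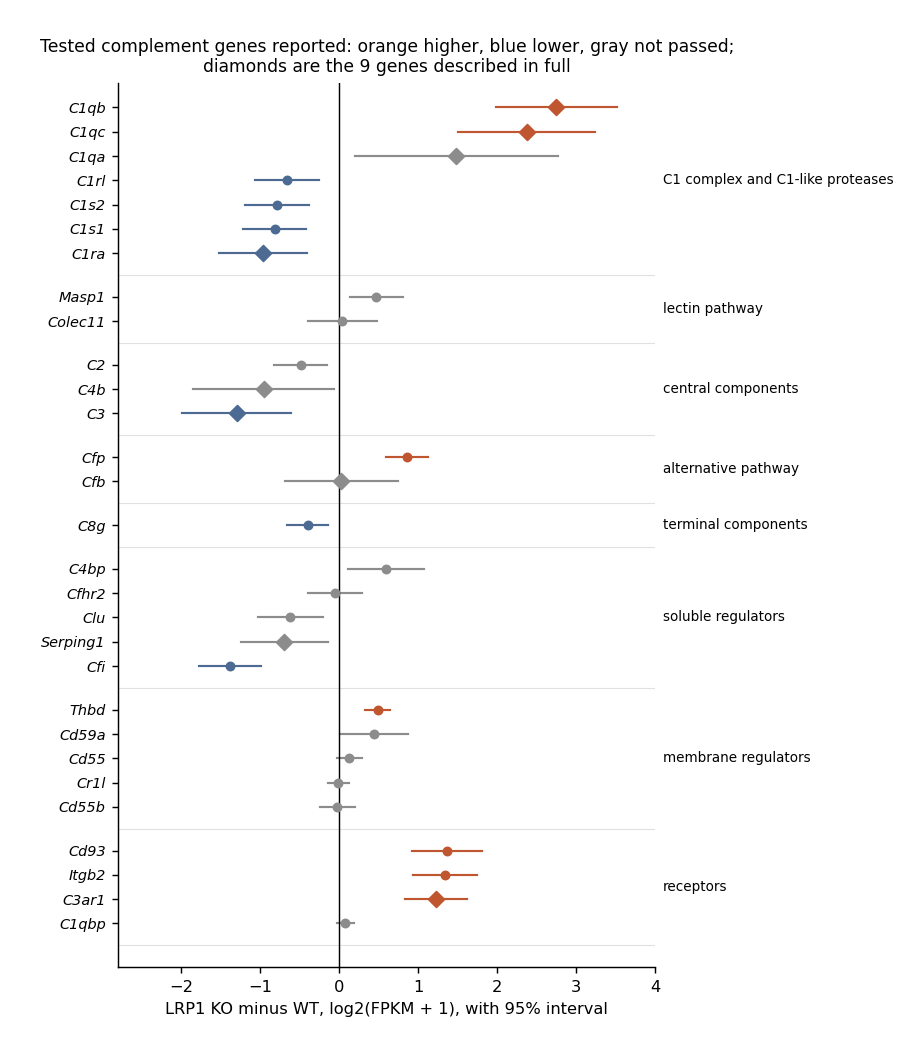
Log2(FPKM + 1) difference of LRP1 KO minus WT with its 95% interval for the tested complement genes reported here, grouped by role. Orange genes passed as higher, blue as lower and gray did not pass, and diamonds are the 9 genes described in full. C1q chains and the 4 receptors lie to the right, with C1qbp at 0.07 and not passed. C1r and C1s proteases, C3 and Cfi lie to the left.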

How the data were processed

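RNA from 4 WT and 4 LRP1 KO libraries was prepared with TruSeq kits. The submitters' processing notes name TopHat2, Cufflinks and mm10, whereas the methods of the study describe trimGalore, STAR, featureCounts and edgeR, whose counts were not used here. The deposited values were read as FPKM, a unit inferred from those notes. They share one set of sorted values across libraries (503571 to 504112 FPKM in sum, highest value 7793 in each), as quantile normalization gives, so total RNA differences between libraries are lost. Depth is unknown, and no counting intervals were computed.

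Genes with at least 1 FPKM in at least 4 libraries were tested on log2(FPKM + 1) with limma 3.58.1 (R 4.3.3, empirical Bayes with a trend, group as the only term, two-sided), with Benjamini-Hochberg adjustment over 11389 genes. Passing was an adjusted p under 0.05. Genes under the filter had an exact permutation test over all 70 splits. The script was tested on simulated data.

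The members, gene lists and tests were chosen with earlier results of these data known. Genes named were Lrp1, the 9 members, every complement gene that passed, the 3 most similar profiles per member, and markers by list. C4bp, Cd55, Cd59a, Clu, Masp1, C2, C1qbp and the low genes were named after their values were seen. One tested complement gene is counted but not reported here by name. Shared 50-base stretches came from GENCODE transcripts and promoters from RefSeq. Alternatives were other pseudocounts (0.1 and 0.5), other filters, rescaling, no trend, a replicate block and leaving out each library.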

Additional observations from a re-analysis of the deposited data

How the results depend on the processing

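Other settings left the directions of C1qa, C1qb, C1qc, C1ra, C3, C3ar1, C4b and Serping1 as reported. Leaving out 1 library gave 512 (without WT 2) to 3021 (without LRP1 KO 4) passing genes against 1547 over all 8 libraries, and 133 to 339 of them with a 2-fold change against 184. With any library other than LRP1 KO 4 left out, at most 1008 genes passed. Over all 8 such fits 0 to 4 members were lower and 3 to 4 higher, and 1 to 7 other complement genes were lower and 4 to 6 higher, the 4 and the 7 lower only without LRP1 KO 4 (otherwise at most 1 and 4). Cfb ranged from -0.27 to 0.31 with 1 library left out and reversed to -0.06 without WT 1, -0.06 without WT 4, -0.04 without LRP1 KO 2 and -0.27 without LRP1 KO 4. With no filter beyond a value above 0 in 1 library, 0 members were lower (C3 adjusted p = 0.0608, C1ra adjusted p = 0.0735), and 7 other complement genes were higher and 2 lower. With at least 5 FPKM in at least 4 libraries, 113 genes passed with a 2-fold change and 1 other complement gene was higher, and C1qa and C3ar1 were not tested. With the replicate number as a block, 1013 genes passed, 1 member was lower (C1ra adjusted p = 0.0606) and 2 other complement genes were lower. The numbers were not taken as pairs, since same-numbered libraries deviated with correlations of 0.158, 0.141, 0.340 and -0.312. Not every library correlated best with its own number. The cause of these changes was not tested. Rescaling moved the median of all genes by at most 0.01 on the log2 scale. Depth is unknown, so low values such as those of C1qa and C3ar1 carry an unstated counting error, and quantile normalization fixes the set of values in each library.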
